A study of Mus musculus with 14 samples.

Results

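The genes described here are 10 stress-response genes read by the unfolded protein response and the integrated stress response: Atf4, Atf5, Ddit3, Trib3, Ppp1r15a, Hspa5, Hsp90b1, Xbp1, Asns and Sesn2. They were chosen by name, as well-known members of these pathways, among the 39017 genes of the count table. Earlier results of these data were known at that point. All 10 had enough reads to be tested, among 21298 genes tested. Their levels were compared between whole hippocampus and parvalbumin (PV) neurons, and between PV neurons of mice with different outcomes of chronic social defeat stress (CSDS).

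All mice were young adult males of C57BL/6 background that carried PV-Cre and a Cre-dependent EGFP-L10a allele, so that the ribosomal protein L10a with a green fluorescent tag was made in cells in which Cre under control of Pvalb had acted. RNA on these tagged ribosomes was isolated by translating ribosome affinity purification (TRAP) from 2 hippocampi of 1 mouse per sample. TRAP samples came from 4 non-defeated mice, kept without contact with aggressors, and from 4 resilient and 3 susceptible mice that had undergone repeated defeat by CD-1 mice. Resilient and susceptible mice were separated by a social interaction ratio after defeat. Input was total RNA of 3 homogenates from non-defeated mice. The tag marks PV neurons of the whole hippocampus, without a split by subregion. Libraries are named by group and by the number in their label. The labels do not say what this number stands for.

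Cells lower translation and switch on a repair program when unfolded proteins fill the endoplasmic reticulum (ER) or when amino acids run short. Sensor kinases phosphorylate the initiation factor eIF2, most mRNAs are then translated less, and a few transcription factor mRNAs, Atf4 and Atf5 among them, are translated more. ATF4 turns on amino acid synthesis genes and the factor CHOP, encoded by Ddit3, while the sensors IRE1 and ATF6 act through XBP1 and cleaved ATF6 on ER chaperone genes. TRAP reads mRNA bound to tagged ribosomes and not the activity of these proteins or the splicing of Xbp1 mRNA.

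The promoters of the ER chaperone genes and of the amino acid genes carry different short elements, and those of 4 members that matched are shown. Promoter windows from 250 bases before to 50 bases after the RefSeq start (GRCm38.p6, 32851 windows of 27025 genes) were found for 10 of 10 members and searched on both strands. The ER stress element, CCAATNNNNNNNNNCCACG, was in 39 windows (0.119%), among them those of Hspa5 and Hsp90b1. The C/EBP-ATF response element, TGATGNAA, was in 1304 windows (3.97%), among them those of Asns and Trib3. The ER stress element II, ATTGG and CCACG with 1 base between, was in 12 windows (0.0365%), and TGACGTGG, the XBP1/ATF6 element, was in 222 (0.676%), with none from the members. Capitals mark the matches. The Hspa5 line is chr2:34772020-34772049 on the plus strand, with the match at -65 from the start. The Hsp90b1 line is chr10:86705510-86705694 on the minus strand and holds a match in each orientation, beginning at -212 and -107. The Asns line is chr6:7693214-7693243 on the minus strand, with the match at -23, and the Trib3 line is chr2:152344028-152344057 on the minus strand, with an inverted match at 14, after the start. These are matches of letters and say nothing of which factor was bound.
Hspa5: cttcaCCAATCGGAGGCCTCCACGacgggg
Hsp90b1: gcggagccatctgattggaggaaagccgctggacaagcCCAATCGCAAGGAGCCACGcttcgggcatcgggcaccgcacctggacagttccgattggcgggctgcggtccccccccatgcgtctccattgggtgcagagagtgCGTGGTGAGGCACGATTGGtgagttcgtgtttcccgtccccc
Asns: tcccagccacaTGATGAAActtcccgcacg
Trib3: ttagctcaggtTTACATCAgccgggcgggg

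Between 64110214 and 94726962 reads were counted on genes per library. Levels are given below as CPM, read counts scaled to library size with TMM normalisation, and a gene passed the test when edgeR's quasi-likelihood test, adjusted by Benjamini-Hochberg over all genes tested, gave a p under 0.05. Nothing in the labels marks technical replicates, and each TRAP sample was 1 mouse. Pvalb had a level of 25.4 ± 6.03 CPM (SD, n = 3) in input, against 1460 ± 134 (SD, n = 4) after TRAP in non-defeated mice. The summed level of 7 PV interneuron markers ran from 3250 to 4480 CPM over TRAP libraries, against 546 to 644 CPM over input libraries. Summed levels of 5 excitatory neuron markers were 709 to 949 CPM in non-defeated TRAP libraries and 1890 to 2210 in input. The sum of 6 markers of other interneurons was higher after TRAP, 429 to 635 against 351 to 384 CPM. Of these 6, Sst and Npy were higher after TRAP (log2 fold changes 1.61 and 2.79). Vip (-2.29), Calb2 (-1.42), Cck (-0.82) and Lamp5 (-0.81) were lower. The 4 globin genes, which mark red blood cells, stood apart among the stress groups, with 114 to 240 CPM in non-defeated, 127 to 588 in resilient and 885 to 1220 in susceptible libraries.

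Levels of different members were compared per kilobase of exon (RPKM), in TRAP RNA of non-defeated mice. Asns, which makes asparagine, had the highest level, 69 ± 11 RPKM (SD, n = 4), followed by Atf4, with 42.9 ± 6.94. Xbp1 came next at 26.4 ± 1.21. Hspa5 (18.1 ± 4.08), Ddit3 (16.7 ± 1.48) and Hsp90b1 (16.6 ± 1.98) lay closer together than their own SDs. Sesn2 (7.49 ± 0.788) and Ppp1r15a (5.34 ± 1.12) were lower. The level of Atf5 was 1.57 ± 0.438 RPKM, and Trib3, at 0.394 ± 0.169, was the lowest, with 25 to 95 reads per library over all groups.

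TRAP RNA was compared with input to ask which members were over- or under-represented on the ribosomes of PV neurons. Xbp1, Asns and Atf5 were higher in TRAP RNA, by 1.39-, 1.37- and 1.53-fold, and Ppp1r15a and Sesn2 were lower, at 0.611 and 0.845 of the input level. The ER chaperone genes Hspa5 and Hsp90b1 and the factor gene Ddit3 were at similar mean levels in both. Of the 10 members, 5 passed the test, against 55.0% of all genes tested (27.4% higher and 27.6% lower), and 5 had groups that did not overlap, against 62.0% of all genes, so the members' share was near the background. Because input is total RNA and TRAP is ribosome-bound RNA, a difference in cell type and one in ribosome loading cannot be told apart, and in each tissue sample fewer cells of a type and less RNA per cell cannot be told apart either.

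Xbp1 encodes the transcription factor whose mRNA is spliced by IRE1 (ENSMUSG00000020484, chr11:5520659-5525893, plus strand, mm10). Its levels were 61.6, 63.8 and 60.1 CPM in input 12, 13 and 14, and 85.3, 85.7, 81.0 and 90.7 CPM in non-defeated 1, 6, 9 and 11. Every TRAP library lay above every input library, and the spread within either group was small beside the gap. The log2 fold change was 0.47 (SE 0.08, adjusted p = 0.000241 by edgeR, exact permutation p = 0.0286, the smallest this design allows). Xbp1 thus had the smallest adjusted p among the members in this comparison.

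Asns encodes asparagine synthetase, a target of ATF4 (ENSMUSG00000029752, chr6:7675169-7693254, minus strand). Input libraries had 134, 142 and 138 CPM, and non-defeated TRAP libraries 1, 6, 9 and 11 had 155, 174, 222 and 205 CPM. All TRAP libraries were above input, with non-defeated 9 and 11 above 1 and 6. This gave a log2 fold change of 0.45 (SE 0.13, edgeR adjusted p = 0.0106, exact permutation p = 0.0571).

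Atf5 encodes a bZIP factor related to ATF4 that is also under translational control (ENSMUSG00000038539, chr7:44812256-44816658, minus strand). It had 2.10, 1.94 and 2.10 CPM in input 12, 13 and 14, and 4.04, 3.70, 2.40 and 2.36 CPM in non-defeated 1, 6, 9 and 11. The groups did not overlap, but non-defeated 9 and 11 were close to input while 1 and 6 were not. A log2 fold change of 0.61 was fitted (SE 0.20, edgeR adjusted p = 0.0195, exact permutation p = 0.0857). Without input 13, non-defeated 1 or non-defeated 6 the adjusted p was 0.0657, 0.0618 and 0.0576. Its exons share 82 bases with Il4i1 on the opposite strand, and whether counting used strand is not given in the sources used here, so reads in that stretch cannot be assigned.

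Ppp1r15a encodes GADD34, the phosphatase subunit that takes the phosphate off eIF2 and restores translation (ENSMUSG00000040435, chr7:45522916-45526268, minus strand). Input had 22.6, 28.5 and 25.9 CPM, and non-defeated 1, 6, 9 and 11 had 20.3, 15.6, 14 and 12.7 CPM. All TRAP libraries were below all input libraries, with non-defeated 1 closest to input. Its log2 fold change was -0.71 (SE 0.16, edgeR adjusted p = 0.00153, exact permutation p = 0.0571), and its summed exons share 12 bases with Tulp2 on the opposite strand. Sesn2, a leucine sensor and inhibitor of mTORC1 signaling, had 32.7, 30.7 and 29.0 CPM in input and 22.3, 25.8, 27.5 and 28.5 CPM in TRAP (ENSMUSG00000028893, chr4:132492032-132510501, minus strand). The groups were apart by little, since non-defeated 11 was just under input 14. The log2 fold change of Sesn2 was -0.24 (SE 0.10, edgeR adjusted p = 0.0427), and the likelihood ratio test, DESeq2, no filter on low counts, the 2 groups alone and an offset for GC content each took the adjusted p over 0.05, to between 0.0559 and 0.0674. Without input 12, input 13, non-defeated 1 or non-defeated 6 it was 0.156, 0.0927, 0.116 and 0.0795.

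The other 5 members did not pass the test in this comparison. Atf4, the central factor of the integrated stress response, had 79.2 ± 9.91 CPM (SD, n = 3) in input and 101 ± 16.4 (SD, n = 4) in TRAP, with a log2 fold change of 0.35 and a 95% confidence interval from -0.01 to 0.71 (edgeR adjusted p = 0.0876). DESeq2 gave Atf4 an adjusted p of 0.0234. Ddit3, which encodes CHOP, had a log2 fold change of 0.05 (95% interval -0.24 to 0.35). Trib3, a pseudokinase gene turned on by ATF4 and CHOP, had 0.75 (95% interval -0.06 to 1.56), the widest interval of the members. Hspa5, which encodes the main ER chaperone BiP, had 0.02 (95% interval -0.31 to 0.34), and Hsp90b1, which encodes the ER form of HSP90, had -0.06 (95% interval -0.25 to 0.13). For Ddit3, Hspa5 and Hsp90b1 these intervals stayed within the size of the Xbp1 difference.

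**Figure D1:**
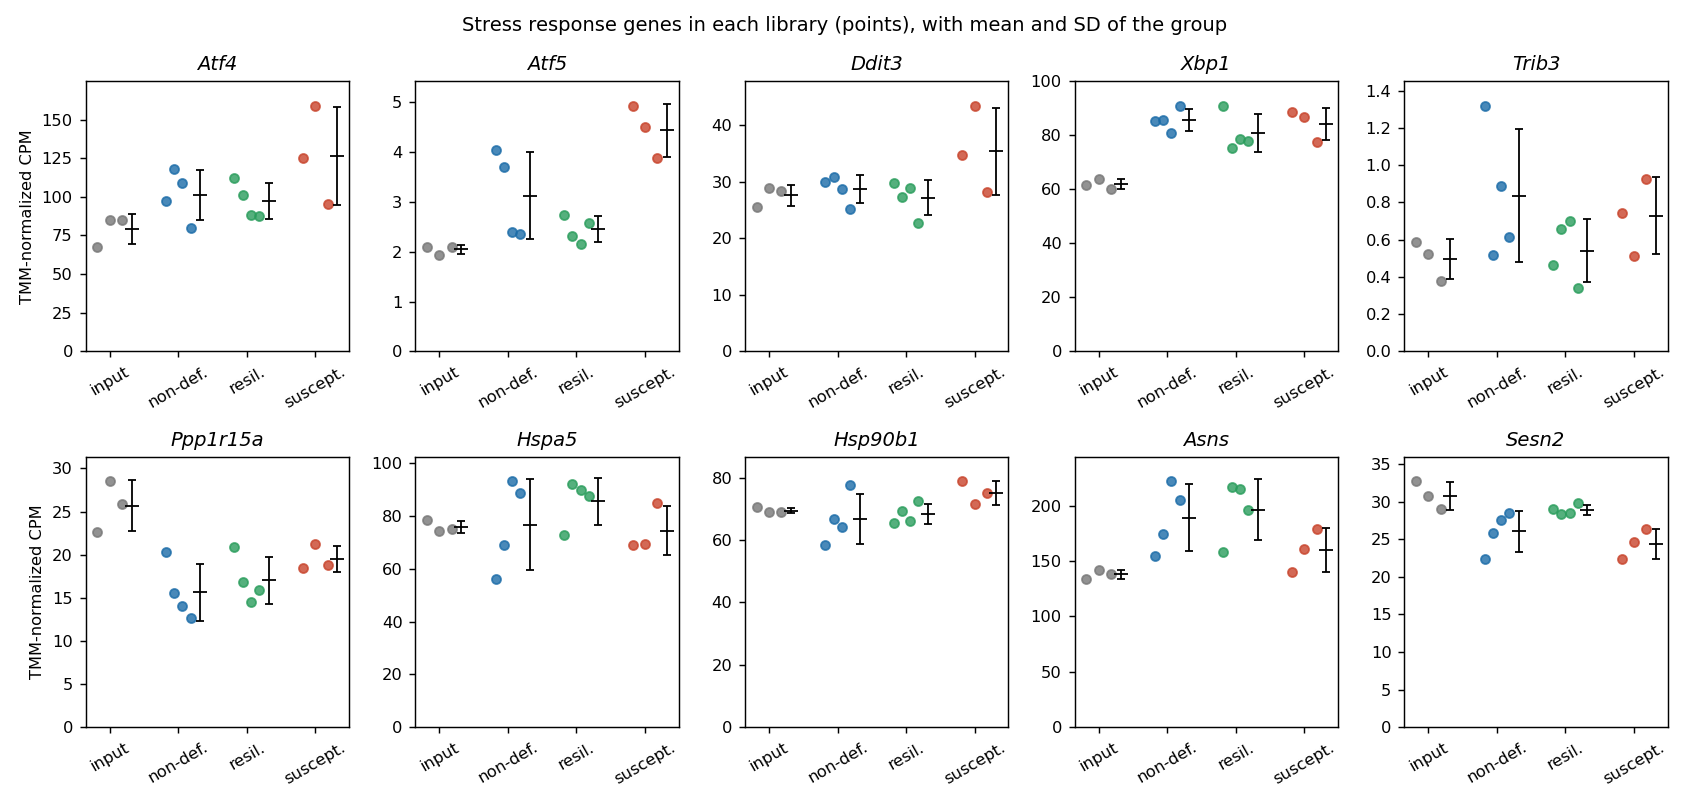
Each panel shows 1 member, with TMM-normalised CPM on the vertical axis from 0, 1 point per library in the 4 groups in order of library number, and the group mean with its SD as a bar beside the points. Xbp1 sits between 60.1 and 63.8 CPM in input and between 75.2 and 91.0 CPM in all TRAP groups, whereas Atf5 spreads from 2.16 to 4.93 CPM among TRAP libraries.

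Resilient and non-defeated mice were compared to ask whether members differed in PV neurons of stressed mice that did not avoid others. No member passed the test, and none of the 10 had an unadjusted edgeR p under 0.05, against 4.38% of all genes tested. Of all genes, 0 passed the adjusted threshold (edgeR), and DESeq2 and the other settings called at most 4. No member had groups that did not overlap, against 2.35% of all genes. The lowest log2 fold changes were -0.63 for Trib3 (95% interval -1.36 to 0.11) and -0.36 for Atf5 (95% interval -0.75 to 0.04), and the highest were 0.16 for Hspa5 (95% interval -0.14 to 0.45) and 0.15 for Sesn2 (95% interval -0.04 to 0.34). The narrowest intervals were those of Xbp1 (-0.25 to 0.08) and Hsp90b1 (-0.14 to 0.21), so that for these genes a difference as large as that of Xbp1 between TRAP and input lay outside the interval.

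Susceptible and non-defeated mice were compared to ask the same of mice that became socially avoidant. No member passed the test (edgeR), against 0.0376% of all genes tested. At an unadjusted p under 0.05, 2 of 10 members were higher in susceptible mice, Atf5 and Ddit3, where 13.3% of all genes had such a p in either direction and 6.61% in the higher direction. None of the members had groups that did not overlap, against 8.62% of all genes. Atf5 had a log2 fold change of 0.50 (SE 0.20, edgeR adjusted p = 0.314, exact permutation p = 0.143), and Ddit3 had 0.30 (SE 0.14, edgeR adjusted p = 0.361, exact permutation p = 0.171). Atf4 had 0.32 (95% interval -0.03 to 0.68) and Ppp1r15a 0.32 (95% interval -0.02 to 0.65). Xbp1 (-0.02, 95% interval -0.20 to 0.15) and Hspa5 (-0.04, 95% interval -0.37 to 0.28) had the smallest differences. Globin genes were higher in susceptible mice, with log2 fold changes from 2.51 to 2.72. Hba-a1 and Hba-a2 passed the test (edgeR adjusted p = 0.0475 each), with adjusted p up to 0.208 under the alternatives. Summed choroid plexus markers were 187 to 296 CPM in non-defeated and 415 to 684 CPM in susceptible libraries. For endothelial markers these sums were 3.29 to 5.88 and 8.03 to 13 CPM. Their part in the member values was not tested.

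Susceptible and resilient mice were compared to ask which members separated the outcomes of the same defeat. Atf5 was 1.81-fold higher in susceptible mice and was the 1 member to pass the test, against 1.89% of all genes tested in either direction and 1.02% in the higher direction. At an unadjusted p under 0.05 there were 5 members, against 20.9% of all genes. Atf4, Atf5 and Ddit3 were the 3 on the higher side in susceptible mice (10.8% of all genes), and Asns and Sesn2 the 2 on the lower side (10.1%). Atf5 and Sesn2 were the 2 of 10 members whose groups did not overlap, against 15.1% of all genes. The 3 comparisons between TRAP groups share libraries and are not independent of one another.

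Atf5 had 4.93, 4.50 and 3.87 CPM in susceptible 2, 4 and 10, and 2.74, 2.31, 2.16 and 2.58 CPM in resilient 3, 5, 7 and 8. The lowest susceptible library lay well above the highest resilient one, while the non-defeated libraries, at 4.04, 3.70, 2.40 and 2.36 CPM, overlapped both groups. The log2 fold change was 0.86 (SE 0.20, 95% interval 0.44 to 1.28, edgeR adjusted p = 0.0459, exact permutation p = 0.0286, the smallest this design allows), at rank 298 of the genes tested. The adjusted p was close to the threshold: it was 0.00147 with DESeq2 and 0.00917 with the likelihood ratio test, but 0.0637 without a filter on low counts, 0.107 with the 11 TRAP libraries alone and 0.136 with the 2 groups alone. Leaving out any library other than susceptible 10 took it to between 0.0574 and 0.17, with log2 fold changes between 0.77 and 0.92.

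Atf4 had 125, 159 and 95.6 CPM in susceptible 2, 4 and 10, and 112, 101, 88.1 and 87.5 CPM in resilient 3, 5, 7 and 8 (ENSMUSG00000042406, chr15:80255184-80257541, plus strand). Susceptible 4 was the highest of all libraries, and susceptible 10 fell inside the resilient range. This was a log2 fold change of 0.38 (SE 0.17, edgeR adjusted p = 0.205, exact permutation p = 0.143). Ddit3 had its susceptible libraries in the same order, with 34.6, 43.4 and 28.1 CPM in susceptible 2, 4 and 10, and 29.7, 27.3, 28.9 and 22.7 CPM in resilient 3, 5, 7 and 8 (ENSMUSG00000025408, chr10:127290774-127296288, plus strand). Susceptible 4 was again the highest and susceptible 10 again inside the resilient range. Its log2 fold change was 0.38 (SE 0.14, edgeR adjusted p = 0.135, exact permutation p = 0.114). Without susceptible 10 it was 0.52 (adjusted p = 0.0399), and without susceptible 4 it was 0.21 (adjusted p = 0.403). Leaving out any library other than susceptible 10 gave an adjusted p between 0.109 and 0.403. Exons of Ddit3 share 68 bases with Mars on the opposite strand.

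Asns had 140, 161 and 179 CPM in susceptible 2, 4 and 10, and 158, 217, 215 and 196 CPM in resilient 3, 5, 7 and 8. The ranges crossed because resilient 3 was low. Its log2 fold change was -0.30 (SE 0.13, edgeR adjusted p = 0.218). Sesn2 had 22.3, 24.6 and 26.3 CPM in susceptible and 29.0, 28.3, 28.5 and 29.8 CPM in resilient libraries. All susceptible libraries were lower, and the 4 resilient ones were close together. This amounted to a log2 fold change of -0.24 (SE 0.10, edgeR adjusted p = 0.168, exact permutation p = 0.0286).

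Among the regulators, Ppp1r15a had 18.5, 21.2 and 18.8 CPM in susceptible and 20.9, 16.8, 14.5 and 15.9 CPM in resilient libraries, and the groups overlapped through resilient 3 (log2 fold change 0.20, 95% interval -0.14 to 0.54). Trib3 (ENSMUSG00000032715, chr2:152337422-152344032, minus strand) ranged from 0.339 to 1.32 CPM over the TRAP libraries, and its log2 fold change of 0.43 had an interval from -0.36 to 1.22. This interval holds both 0 and the value of Atf5.

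The ER chaperone genes with ER stress elements in their promoter windows did not pass the test. Hspa5 (ENSMUSG00000026864, chr2:34771970-34777547, plus strand) had 68.9, 69.2 and 85 CPM in susceptible and 72.6, 92.2, 89.9 and 87.5 CPM in resilient libraries, with a log2 fold change of -0.20 (95% interval -0.52 to 0.12). Its non-defeated values, 56.2, 68.9, 93.1 and 88.7 CPM, covered the whole range of both. Hsp90b1 (ENSMUSG00000020048, chr10:86690209-86705509, minus strand) had 78.8, 71.4 and 75.0 CPM in susceptible and 65.5, 69.4, 66.1 and 72.4 CPM in resilient libraries. The groups overlapped by 1 library on each side, and the log2 fold change was 0.13 (95% interval -0.05 to 0.32). Exons of Hsp90b1 share 415 bases with 1810014B01Rik on the opposite strand, and 84 bases with Gm15344 and 133 with Gm25745 on the same strand. Xbp1 had 88.6, 86.7 and 77.5 CPM in susceptible and 91.0, 75.2, 78.7 and 77.9 CPM in resilient libraries, with a log2 fold change of 0.06 (95% interval -0.11 to 0.24).

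Globin transcripts moved with this comparison. All 4 globin genes were higher in susceptible than in resilient mice, from a log2 fold change of 1.75 for Hba-a2 to 2.04 for Hbb-bs, and resilient 5, with 588 CPM of summed globins, was nearest to the susceptible libraries. These calls were near the threshold too, with adjusted p up to 0.145 under the alternatives, and reads of these near-identical genes may have been split by the counting. The summed levels of 4 choroid plexus markers also differed in range, 415 to 684 CPM in susceptible and 156 to 427 CPM in resilient libraries, without any of the 4 passing the test. None of the 7 PV interneuron markers passed it either, nor did any of 6 markers of other interneurons or 5 of astrocytes. Summed markers of other interneurons were 866, 877 and 505 CPM in susceptible 2, 4 and 10. In resilient 3, 5, 7 and 8 they were 794, 479, 439 and 464 CPM. Summed astrocyte markers were 161, 160 and 339 CPM in these susceptible libraries and 166, 279, 210 and 256 CPM in these resilient ones. Summed globins were 885, 910 and 1220 CPM in susceptible 2, 4 and 10, where Atf5 was at 4.93, 4.50 and 3.87 CPM. In resilient 3, 5, 7 and 8 they were 238, 588, 127 and 157 CPM, with Atf5 at 2.74, 2.31, 2.16 and 2.58 CPM. In non-defeated 1, 6, 9 and 11 they were 150, 164, 114 and 240 CPM, with Atf5 at 4.04, 3.70, 2.40 and 2.36 CPM. The part of blood and other cell types in the member values was not tested.

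**Figure D2:**
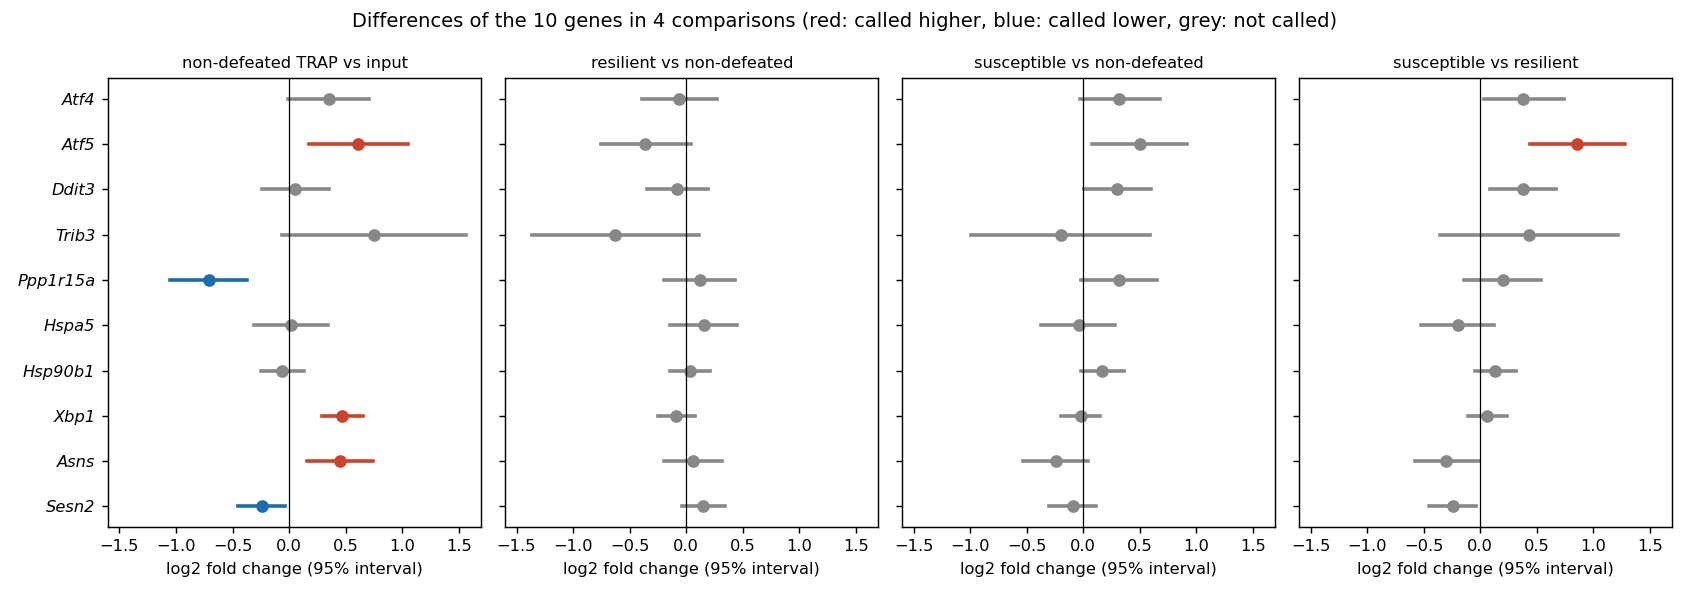
Log2 fold changes of the 10 members in the 4 comparisons, with 95% confidence intervals from edgeR as bars, in red where the gene was higher and blue where it was lower at an adjusted p under 0.05, and grey otherwise. Atf5 lies at 0.86 in susceptible against resilient mice, and every interval between resilient and non-defeated mice crosses 0.

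The number in the library label was also examined, since it cuts across the groups. In the 11 TRAP libraries with group in the model, libraries 7 to 11 differed from libraries 1 to 6 by a log2 fold change of 0.32 for Hspa5 (edgeR adjusted p = 0.0753), 0.25 for Asns, -0.32 for Atf4, -0.37 for Atf5, -0.30 for Ppp1r15a and -0.24 for Ddit3. These 6 of 10 members had an unadjusted p under 0.05, against 25.5% of all genes, and none passed the adjusted threshold, which 2.28% of genes passed. Susceptible against resilient, within libraries 1 to 6 (2 against 2), the mean log2 difference was 0.90 for Atf5, 0.41 for Atf4, 0.44 for Ddit3, -0.31 for Asns and -0.29 for Sesn2. Within libraries 7 to 11, where susceptible mice had 1 library, these were 0.71, 0.12, 0.14, -0.20 and -0.15, so the signs were the same and all were smaller. With the number in the model, Atf5 had an adjusted p of 0.0519.

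The members were next compared with one another across the 11 TRAP libraries, by the correlation of log2 CPM. Libraries share depth scaling, the group differences above and the spread by library number, so these values describe the set of libraries. They also differ in markers of other cells. Summed astrocyte markers were 160 to 166 CPM in non-defeated 1 and 6, resilient 3 and susceptible 2 and 4. In the other TRAP libraries they were 210 to 339 CPM. Summed markers of other interneurons were 538 to 877 CPM in the former libraries and 429 to 505 CPM in the latter. For microglia markers these ranges were 23.5 to 26.3 and 27.8 to 32.1 CPM. Hspa5 was at 56.2 to 72.6 CPM in the former and 85 to 93.1 CPM in the latter. For Asns these ranges were 140 to 174 and 179 to 222 CPM. The part of other cells in the correlations was not tested. Of 45 pairs, 9 had a Pearson r with a permutation p under 0.05 after Benjamini-Hochberg adjustment over the pairs, and 4 by Spearman's rho. Values of r ran from -0.87 to 0.90, with a median of -0.06, so the 10 genes did not vary as a single block.

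Atf4 and Ddit3 had the highest r of the 45 pairs, 0.90 (permutation p = 0.00029, adjusted 0.0081), with rho = 0.85 (permutation p = 0.00191, adjusted 0.0286). Without the 2 libraries farthest from the median of Atf4, r was 0.76. With group means taken out it was 0.86, and within libraries 1 to 6 it was 0.94 (n = 6). Of all genes tested, 0.108% had an r with Atf4 at least this high. Libraries 7 to 11 were too few for a value.

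Hspa5 and Asns formed another pair, with r = 0.87 (permutation p = 0.00108, adjusted 0.0162) and rho = 0.92 (permutation p = 0.00019, adjusted 0.00855). It was 0.96 without the 2 farthest libraries, 0.93 with group means taken out and 0.76 within libraries 1 to 6. Of all genes, 1.76% were at least as close to Hspa5. Sesn2 was close to Hspa5 by r (0.79, permutation p = 0.00305, adjusted 0.0274) but its rho of 0.62 was not past the threshold (permutation p = 0.0465, adjusted 0.165). The same held for Asns with Sesn2 (r = 0.74, adjusted permutation p = 0.0472, rho = 0.52, adjusted 0.238) and for Asns with Ppp1r15a (r = -0.77, adjusted permutation p = 0.0472, rho = -0.70, adjusted 0.113).

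Atf5 varied against this pair. Its r was -0.87 with Asns (permutation p = 0.00173, adjusted 0.0195), with rho = -0.85 (permutation p = 0.00139, adjusted 0.0286), and -0.77 with Hspa5 (permutation p = 0.00702, adjusted 0.0472), with rho = -0.82 (permutation p = 0.00303, adjusted 0.0341). Without the 2 farthest libraries these r were -0.79 and -0.76, and with group means taken out -0.88 and -0.94. Within libraries 1 to 6 they were -0.79 and -0.71. For Atf5 and Sesn2, r was -0.87 (permutation p = 0.00036, adjusted 0.0081), while rho was -0.72 (permutation p = 0.016, adjusted 0.113). Strong relations to Atf5 were common, since 2.59% of all genes had an r at or below that of Asns and 6.54% at or below that of Hspa5. Atf5 and Ddit3 had r = 0.69 (permutation p = 0.00989, adjusted 0.0494), while rho was 0.69 (permutation p = 0.0231, adjusted 0.113). This r dropped to 0.43 without the 2 farthest libraries and to 0.38 with group means taken out, and was 0.72 within libraries 1 to 6.

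**Figure D3:**
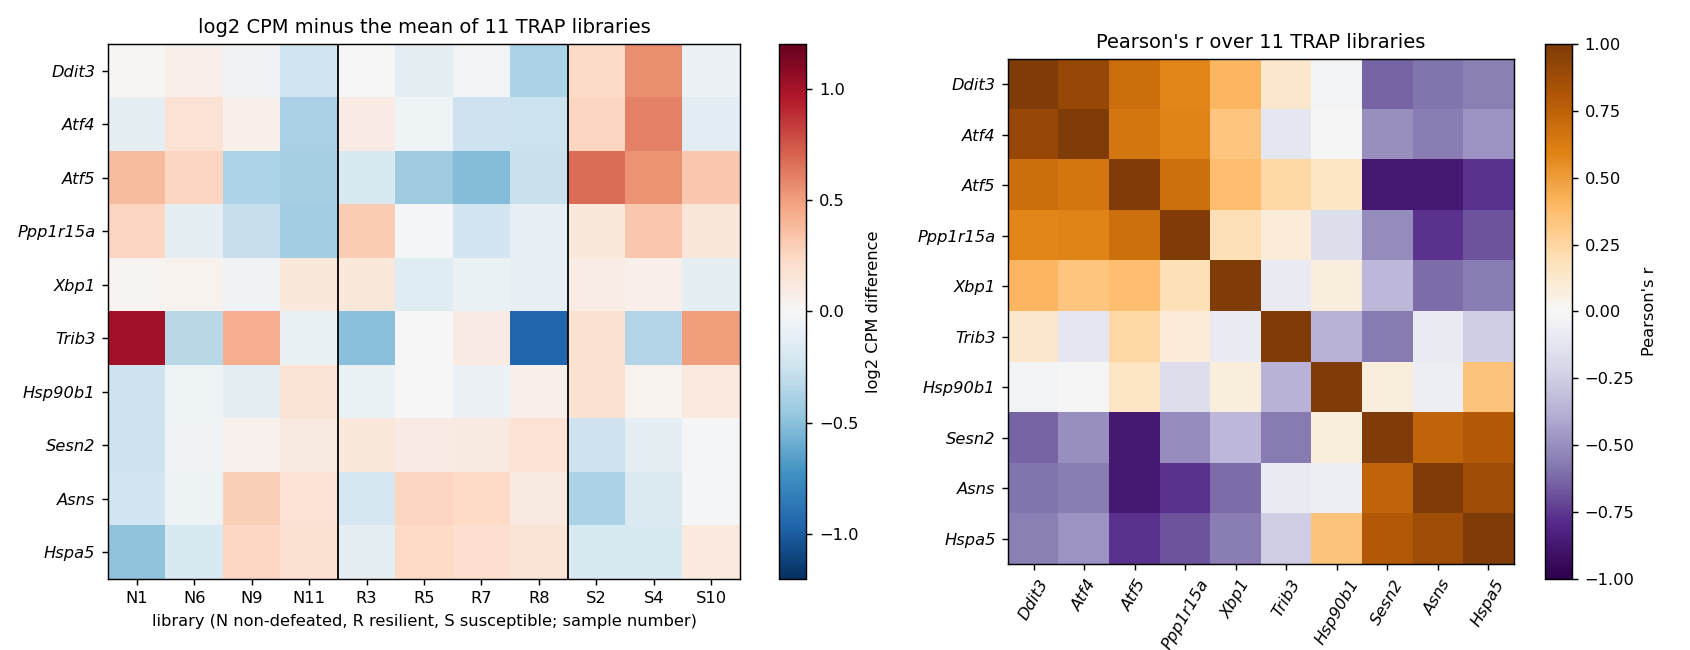
The left heat map shows the 10 members (rows) in the 11 TRAP libraries (columns, by group and number), coloured by log2 CPM minus the member's mean over these libraries, and the right one Pearson's r of each pair over the same libraries. Atf5, Atf4 and Ddit3 are high in susceptible 2 and 4, where Asns and Sesn2 are low.

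**Figure D4:**
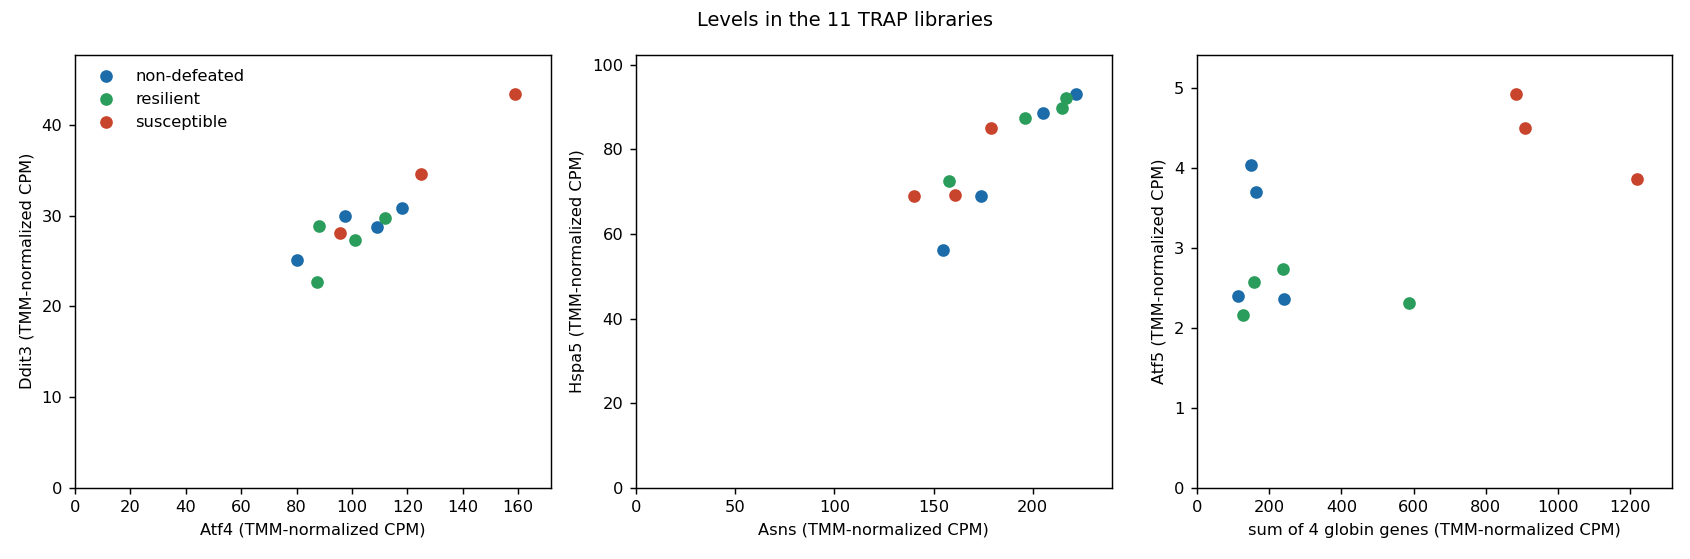
TMM-normalised CPM of Ddit3 against Atf4, Hspa5 against Asns, and Atf5 against the sum of 4 globin genes in the 11 TRAP libraries, 1 point per library and 1 colour per group, on linear axes from 0. Atf4 and Ddit3 are both highest in susceptible 4, at 159 and 43.4 CPM, and Atf5 is high in susceptible libraries with many globin reads and in non-defeated 1 and 6 with few.

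The members were then set beside other genes of their pathways, in lists of 14 to 26 genes. In TRAP against input, 27.4% of all genes tested passed the test as higher and 27.6% as lower. Of 14 cytosolic heat shock genes, 8 were higher in TRAP RNA and 1 lower, with a median log2 fold change of 0.36. The median of all genes was -0.04. Of 20 ER chaperone and folding genes, 6 were higher and none lower (median 0.08). Of 18 genes of ER export and ER-associated degradation, 5 were higher and 7 lower (median -0.15), and of 18 sensor and eIF2 switch genes, 5 were higher and 5 lower (median 0.05). Of 25 tested amino acid and ATF4 target genes, 2 were higher and 9 lower (median -0.13). The median of the 10 members was 0.20.

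The genes with the smallest adjusted p in each list and direction spanned a wide range. Among sensors, Atf6, the ER-bound factor that is cleaved under stress, had 13.2 ± 2.42 CPM (SD, n = 4) in TRAP and 31.1 ± 2.28 (SD, n = 3) in input (log2 fold change -1.23, edgeR adjusted p = 2.25e-06). Mbtps1, which encodes the protease that cleaves it, was also lower (-0.93). Eif2b5, a subunit of the exchange factor that phosphorylated eIF2 blocks, was higher (0.60), as was Nck1 (0.50). Among chaperones, Manf (0.66) and Calr (0.35), which encodes calreticulin, were higher. Among degradation and export genes, Sec61g, a subunit of the translocation channel, had the smallest adjusted p (160 ± 25.5 against 64.3 ± 2.9 CPM, log2 fold change 1.31) and Herpud1 was higher too (0.88), whereas Edem1 (-0.75) and Edem2 (-0.60), which direct misfolded glycoproteins to degradation, were lower.

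Among ATF4 targets, Chac1, which breaks down glutathione and carries the C/EBP-ATF element in its promoter window, had 38.7 ± 3.71 CPM (SD, n = 4) in TRAP and 14.4 ± 1.3 (SD, n = 3) in input (log2 fold change 1.43, edgeR adjusted p = 6.45e-08). Mthfd2, a mitochondrial folate enzyme gene, was higher (0.59), and Vldlr (-0.77) and Ddit4 (-0.53), an inhibitor of mTORC1, were lower. Among heat shock genes, Hsp90aa1 had 1800 ± 50.6 against 667 ± 22 CPM (log2 fold change 1.43) and Bag3, a co-chaperone gene, 16.6 ± 1.01 against 6.28 ± 0.0842 (1.40). Cryab, a small heat shock protein gene that oligodendrocytes and astrocytes also express, was lower (-1.80), as were the summed oligodendrocyte markers, 467 to 665 CPM in TRAP and 1740 to 2060 in input, whose part in these values was not tested.

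Between stress groups almost no gene of these lists passed the test. Resilient against non-defeated and susceptible against non-defeated mice gave none in any list (edgeR), and the smallest adjusted p in the latter was 0.189, in the heat shock list. At an unadjusted p under 0.05 the latter comparison held 2 sensors, 3 chaperones, 4 export and degradation genes, 4 ATF4 targets and 3 heat shock genes, where 13.3% of all genes had such a p. Susceptible against resilient, the lists' medians lay between -0.15, for export and degradation, and 0, for chaperones, while that of the members was 0.17 and that of all genes 0. At an unadjusted p under 0.05, where 20.9% of all genes lay, there were 2 chaperones higher and 3 lower in susceptible mice, 2 and 5 export and degradation genes, 2 and 1 ATF4 targets, 2 and 2 heat shock genes, and 0 and 4 of 18 sensors. These sensors were Eif2b5 (log2 fold change -0.27, edgeR adjusted p = 0.101), Eif2ak3 (-0.57, 0.125), Mbtps1 (-0.36, 0.132) and Atf6b (-0.22, 0.191). Eif2ak3 encodes the ER kinase PERK. The 4 sensors were named after their values were seen.

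Vldlr, a lipoprotein receptor gene on the ATF4 list whose promoter window holds the C/EBP-ATF element, was the 1 list gene higher in susceptible than in resilient mice. Its mean level was 10.5 ± 1.47 CPM (SD, n = 4) in the resilient group against 15.2 ± 0.561 (SD, n = 3) in the susceptible group, a log2 fold change of 0.53 (SE 0.11, edgeR adjusted p = 0.0377). Like Atf5 it was near the threshold, with adjusted p up to 0.132 when single libraries were left out, where 6 of 7 fits did not pass, and 0.15 with the 2 groups alone. Of 377 tested genes with a C/EBP-ATF element, 1 passed the test as higher and 2 as lower in the susceptible group, and of 22 with an ER stress element, 1 was higher, with medians of 0.02 and 0.03. Among all genes tested, 1.89% passed in either direction and 1.02% as higher.

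**Figure D5:**
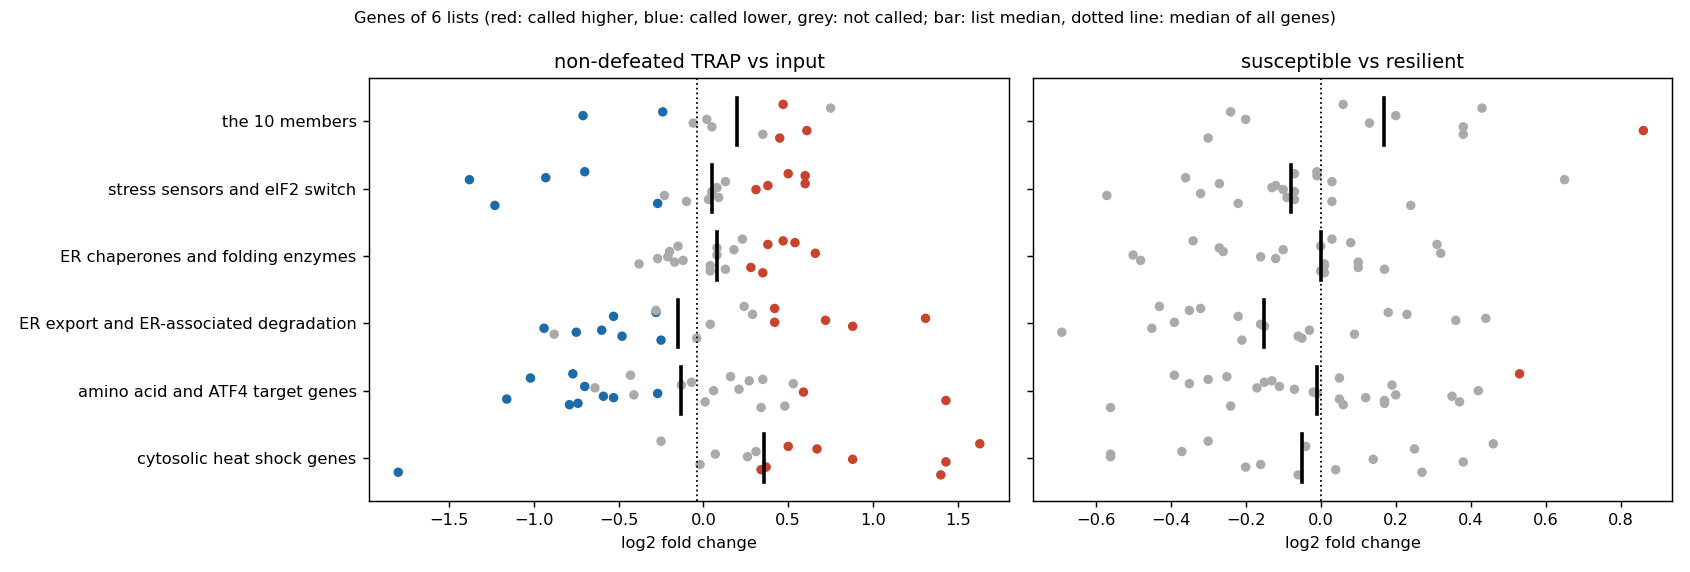
Log2 fold changes of the genes of each pathway list and of the members, 1 point per gene, in TRAP against input and in susceptible against resilient mice, with the list median as a bar, a dotted line at the median of all genes, and red (higher) or blue (lower) points where the edgeR adjusted p was under 0.05. Heat shock genes lie mostly above 0 in TRAP against input (median 0.36), and in susceptible against resilient mice Atf5 and Vldlr are the points that passed the test.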

How the data were processed

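TRAP RNA of 11 samples and input RNA of 3 were sequenced from full-length cDNA. The authors trimmed reads with fastp, aligned them to mm10 with STAR (2.5.3a in the submitters' processing notes, which also list HTSeq) and deposited raw counts per gene, without normalization. Their annotation and strand setting are not given in the sources used here. Samples were grouped by their labels.

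Genes were named, and exon lengths and GC content taken, from GENCODE mouse release 21 (GRCm38, the same assembly as mm10). Rows without a name held 0.824% of counts. The 14 libraries were fitted in 1 model in R 4.3.3 with edgeR 4.0.16 (TMM, filterByExpr, quasi-likelihood test, 2-sided, Benjamini-Hochberg adjustment). Exact permutation tests used log2 CPM with a prior count of 2, 2-sided, and correlations 1e+05 resamples. RPKM divides TMM-normalised CPM by exon length. Counting error is part of the replicate spread that the tests use. In every group replicates differed by more than counting error. The steps were tested on simulated data. The members and lists were chosen with earlier results of these data known. All members are named, and of other lists the genes past the threshold between stress groups and, in TRAP against input, the 2 smallest adjusted p per direction. Sensors with an unadjusted p under 0.05 in susceptible against resilient mice are named as well. Promoter windows are from RefSeq. Alternatives were the likelihood ratio test, DESeq2 1.42.0, RLE size factors, no filter, at least 10 counts in every library, fewer groups, a GC offset, the library number and leaving out each library. Except for these sensors between stress groups, other named genes were put through the same alternatives after the data were seen.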

Additional observations from a re-analysis of the deposited data

How the results depend on the processing

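No paired analysis was possible because the groups share no replicate number. In TRAP against input, 4 or 5 members passed under the 7 other settings and 3 to 6 with a library left out. It was 3 without input 13, non-defeated 1 or non-defeated 6, where Atf5 and Sesn2 did not pass, and all genes called numbered 10979 to 12697 (10024 to 11489 with a library left out) against 11719. In susceptible against resilient mice, 0 members passed with no filter, the 11 TRAP libraries, the 2 groups compared, the GC offset or the number in the model, and 0 to 2 with a library left out. All genes called there were 403 and between 0 and 1099 under other settings (6 to 1058 with a library left out), and in susceptible against non-defeated mice 8 and between 0 and 189 (0 to 6). The cause was not tested.

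Near 0, direction turned for Hspa5 in TRAP against input with at least 10 counts in every library (-0.01), for Hsp90b1 there with the GC offset (0.08) and for Hspa5 in susceptible against non-defeated mice with the number in the model (0.02). With libraries left out, log2 fold changes crossed or reached 0 in TRAP against input for Ddit3 (0 to 0.12), Hspa5 (-0.09 to 0.14) and Hsp90b1 (-0.13 to 0). They did so in resilient against non-defeated mice for Hsp90b1 (-0.02 to 0.11), Asns (-0.03 to 0.15), Atf4 (-0.16 to 0.02), Ddit3 (-0.14 to 0) and Ppp1r15a (0 to 0.27). In susceptible against non-defeated mice they did so for Trib3 (-0.41 to 0.11), Hspa5 (-0.17 to 0.06) and Xbp1 (-0.06 to 0.03). No difference called for a member changed sign under any setting. No scaling moved the median of all genes by more than 0.1. Trib3, with 25 to 95 reads per library, had the widest intervals, and the shares of depth and of spread between mice in them were not tested.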
